A study of Mus musculus with 11 samples.

Results

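The tRNAs described here are the lysine acceptors, with the anticodons CTT and TTT, and the arginine acceptors that read codons of the CGN box, with the anticodons ACG, CCG and TCG. Their members were the tRNA genes whose names in the count files end in LysCTT, LysTTT, ArgACG, ArgCCG or ArgTCG, which gave 44 of the 433 genes. They comprised 19 LysCTT, 11 LysTTT, 6 ArgACG, 3 ArgCCG and 5 ArgTCG copies. The series examined tRNAs and their fragments in the frontal lobe of C57BL/6 mouse embryos with and without NSUN2, an enzyme that methylates cytosines in RNA. For E18.5, late in embryonic life, there were 4 samples of each genotype, and for the earlier stage E13.5 there were 2 from Nsun2 -/- embryos and a single one from wild type. All RNA was stripped of bound amino acids, selected for small size and sequenced as small RNA. The labels say nothing of separate litters, so that p-values measure the spread between these samples. The files hold tRNA genes only, so neither the loss of Nsun2 nor markers of the frontal lobe could be checked in them.

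Lysine has only the codons AAA and AAG. The tRNA with anticodon TTT reads AAA and, by wobble pairing, AAG, whereas the tRNA with anticodon CTT reads AAG. Among the arginine tRNAs, the first base of the ACG anticodon is converted to inosine, which pairs with U, C or A in the codon, so that ArgACG covers CGU, CGC and CGA. ArgTCG reads CGA and ArgCCG reads CGG, while the AGA and AGG codons are left to ArgTCT and ArgCCT. In mouse, each of these tRNAs is encoded by several scattered gene copies, and NSUN2 is known to methylate cytosines at the variable loop of many tRNAs.

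The sequences below are examples of reads listed for the copies that carried most counts, and they need not be typical of those copies. They were taken from the study's lists of tRNA-derived reads, of which only a part was at hand, and each is the longest one listed for its copy alone (for chr14.trna209-ArgACG, both of the longest). They are reads placed with up to 2 mismatches, not gene sequences. The study describes the lists as fragments of differential abundance. For chr13.trna1000-LysTTT, the next longest read listed for it alone had 39 nt. Capitals mark the anticodon or, in the reads of chr1.trna485-LysTTT and chr1.trna1184-LysTTT, the bases that precede the start of the mature tRNA.
chr13.trna103-LysCTT: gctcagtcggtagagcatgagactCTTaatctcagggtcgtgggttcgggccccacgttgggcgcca
chr13.trna1000-LysTTT: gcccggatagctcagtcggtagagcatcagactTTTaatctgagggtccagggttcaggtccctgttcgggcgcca
chr1.trna485-LysTTT: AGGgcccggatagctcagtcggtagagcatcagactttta
chr1.trna1184-LysTTT: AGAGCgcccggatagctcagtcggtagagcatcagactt
chr14.trna209-ArgACG, first: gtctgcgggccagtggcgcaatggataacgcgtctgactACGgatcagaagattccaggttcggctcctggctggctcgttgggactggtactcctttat
chr14.trna209-ArgACG, second: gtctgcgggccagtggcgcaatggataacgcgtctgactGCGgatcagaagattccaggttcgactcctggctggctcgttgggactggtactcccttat
chr11.trna945-ArgCCG: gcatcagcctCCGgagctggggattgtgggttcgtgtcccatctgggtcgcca
chr17.trna994-ArgCCG: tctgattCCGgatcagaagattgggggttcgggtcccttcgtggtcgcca
chr7.trna387-ArgTCG: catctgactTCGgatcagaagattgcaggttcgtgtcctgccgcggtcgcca

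The read of chr13.trna1000-LysTTT is 76 nt long, runs from the first base of the mature tRNA to the CCA that is added to its 3′ end, and carries TTT at position 34. The full-length LysCTT reads, which are also 76 nt long, matched it at 61 to 63 of 76 positions. The reads of chr1.trna485-LysTTT and chr1.trna1184-LysTTT were of another kind: they begin 3 and 5 bases before the mature start and stop in the anticodon loop, at 40 and 39 nt. Both reads of chr14.trna209-ArgACG were 100 nt long, longer than the 73-nt gene, and lack the CCA end. Counted from the first base of the read, they differ in the first base of the anticodon by A40G, among other places. Of the 4 reads found to span the anticodon of this copy, 2 read ACG and 2 read GCG. The search took only ACG or GCG here, so a read with another first base would not have been found. Inosine is read as G in sequencing. Because reads may hold up to 2 mismatches, the source of the G cannot be told, and it was not tested.

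In all, 265 distinct sequences were listed for 28 of the 44 copies, and 52 of them for more than 1 copy. The overlap lay mostly in LysCTT, where 49 of 189 sequences were listed for more than 1 copy. The lists and the counts do not cover the same reads: chr17.trna82-LysCTT and chr17.trna1000-LysCTT had 30 and 27 listed sequences but only 1 and 2 counts over all samples. Reads were counted where they had 1 best position in the genome, and those that fitted several copies equally well were left out.

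Together the 44 copies held 10061 counts, 16.0% of all tRNA counts of the 11 samples, of which 4270 were lysine and 5791 CGN arginine. A sample had between 4011 and 9827 counts on all tRNA genes and between 680 and 1526 on these copies, and 3 counts, the least that is taken as detected here, correspond to between 0.0305% and 0.0748% of a sample. Counting error is the only error these limits cover. Among the 53 isoacceptors, ArgACG ranked 6th by total count, LysTTT 7th, ArgCCG 12th, LysCTT 15th and ArgTCG 19th. All 44 copies were counted over intervals of the same length, 113 nt (the 73-nt gene and 20 nt on each side), so that length does not set their levels apart. Because reads that fitted several copies were left out, levels may still depend on how much of its sequence a copy shares with others.

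Counts were concentrated in few copies. Of the 44, 10 had no count in any sample (8 LysCTT and 2 LysTTT), 16 had fewer than 10 counts over all samples, and 26 had counts in every sample. The copy chr13.trna103-LysCTT (chr13:23528209-23528281, mm9, + strand) held 74.0% of LysCTT counts. In LysTTT, chr1.trna485-LysTTT (chr1:134930539-134930611, +) held 28.3% and its 2 closest rivals, chr1.trna1184-LysTTT (chr1:134930904-134930976, −) and chr13.trna1000-LysTTT (chr13:21259944-21260016, −), brought this to 77.9%. The chr1 copies lie 292 nt apart on opposite strands and their counted intervals do not overlap. Leading arginine copies were chr14.trna209-ArgACG (chr14:55136533-55136605, +) with 68.0%, chr11.trna945-ArgCCG (chr11:106874180-106874252, +) with 68.5% and chr7.trna387-ArgTCG (chr7:86611305-86611377, +) with 55.8% of their isoacceptor. Coordinates are those of the count files, whose header names an mm9 annotation.

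To ask how these tRNAs differed between stages, the 8 E18.5 samples were compared with the 3 E13.5 samples, as the average of the difference in each genotype. All 5 isoacceptors differed, 3 upward and 2 downward: ArgTCG, ArgCCG and LysCTT were higher at E18.5, and ArgACG and LysTTT lower (edgeR's quasi-likelihood test, adjusted p from 1.46e-04 to 0.00969). Of all isoacceptors tested, 40.4% were called in this comparison, 21.3% higher and 19.1% lower at E18.5. Because the files hold bulk tissue, a change in the mix of cells and a change in the amount of RNA per cell cannot be told apart. The wild-type sample at E13.5 carries as much weight in the average as both Nsun2 -/- samples of that stage together. The difference in the Nsun2 -/- samples alone, which leaves both wild-type groups out of the difference, is therefore given beside each of these isoacceptors and each called copy. Its filter, scaling and estimate of spread still come from the fit of all 11 samples, wild type included.

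ArgTCG, which reads CGA as ArgACG also does, made up 1.45% and 1.33% of all tRNA counts in the Nsun2 -/- samples at E13.5 and 1.19% (95% Wilson interval 0.958 to 1.48) in the wild-type sample. At E18.5 it made up 1.80%, 1.89%, 1.85% and 2.52% in Nsun2 -/- and 2.25%, 2.54%, 1.83% and 2.01% in the wild-type samples, listed by replicate number as in all that follows. No E18.5 sample was as low as any E13.5 sample. The fitted log2 fold change was 0.63 (SE 0.13, adjusted p = 1.46e-04), a 1.55-fold higher level at E18.5. ArgTCG was the one isoacceptor of the 5 that also passed in the Nsun2 -/- samples alone, at 0.44 (adjusted p = 0.0462).

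ArgCCG, which reads CGG, stood at 2.17% and 2.55% in Nsun2 -/- and 1.95% in the wild-type sample at E13.5. At E18.5 the values were 3.01%, 2.97%, 2.75% and 2.97% without NSUN2 and 3.77%, 4.02%, 2.91% and 2.84% in wild type. Again the stages did not overlap, and the fit gave 0.50 (SE 0.11, adjusted p = 4.87e-04), a 1.42-fold higher level at E18.5. In the Nsun2 -/- samples alone the log2 fold change was 0.25 and did not pass (adjusted p = 0.171). ArgACG, the abundant inosine-bearing tRNA, went the other way: it made up 4.85% and 4.14% in Nsun2 -/- and 5.93% in the wild-type sample at E13.5, against 4.48%, 4.68%, 3.90% and 4.21% in Nsun2 -/- and 4.25%, 3.80%, 4.36% and 4.81% in wild type at E18.5. The single wild-type sample at E13.5 was above every other sample, and the remaining samples of the stages overlapped. The fit gave −0.32 (SE 0.088, adjusted p = 0.00357), but −0.15 in the Nsun2 -/- samples alone (adjusted p = 0.365).

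The lysine isoacceptors moved in opposite directions while their sum did not pass a test. LysCTT was nearly constant within each stage, at 1.98% and 1.86% in Nsun2 -/- and 1.98% in wild type at E13.5, and at 2.43%, 2.54%, 2.59% and 2.64% in Nsun2 -/- and 2.49%, 2.57%, 2.49% and 2.55% in wild type at E18.5. The stages did not overlap, and LysCTT was 1.25-fold higher at E18.5, a log2 fold change of 0.32 (SE 0.096, adjusted p = 0.00755). The Nsun2 -/- samples alone gave 0.33 (adjusted p = 0.0501). LysTTT made up 5.08% and 4.32% in Nsun2 -/- and 5.15% in wild type at E13.5. At E18.5 it made up 4.00%, 3.90%, 4.62% and 4.61% in Nsun2 -/- and 4.47%, 4.16%, 4.17% and 3.85% in wild type, where the lower Nsun2 -/- sample of E13.5 fell inside the E18.5 range. The log2 fold change was −0.28 (SE 0.088, adjusted p = 0.00969), −0.22 in the Nsun2 -/- samples alone (adjusted p = 0.153) and −0.23 (adjusted p = 0.0702) without the first Nsun2 -/- sample of E13.5. The lysine total was 6.79% ± 0.53 (SD, n = 3) of all counts at E13.5 and 6.76% ± 0.34 (SD, n = 8) at E18.5.

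**Figure D1:**
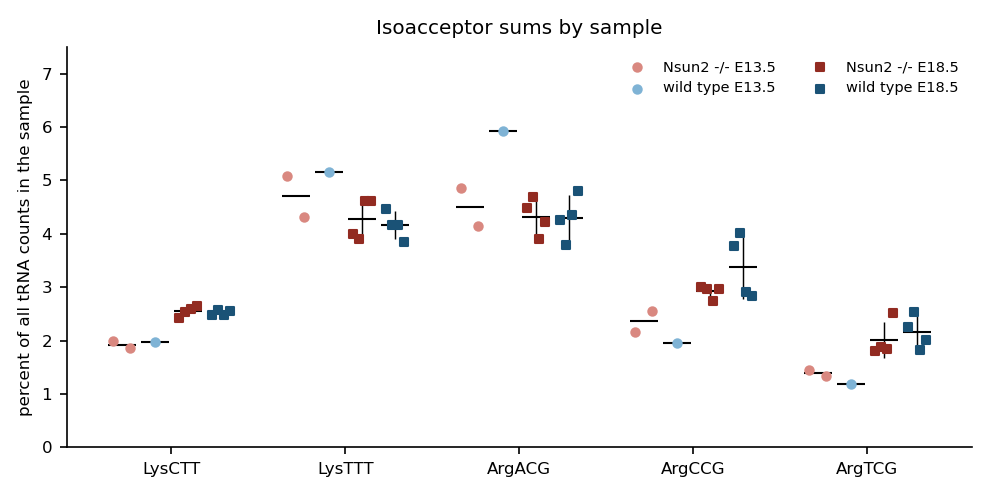
Percent of each sample's tRNA counts (y axis) in the 5 isoacceptors (x axis). Points are samples, circles for E13.5 and squares for E18.5, red for Nsun2 -/- and blue for wild type; black bars are group means, with vertical lines of 1 SD in the groups of 4. LysCTT lies between 1.86% and 1.98% at E13.5 and between 2.43% and 2.64% at E18.5.

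Shares within an amino acid do not depend on the remaining tRNAs, and they were compared by exact two-sided permutation tests, with the stage labels permuted within each genotype (75 arrangements, so that p cannot be below 0.0133) and adjustment over 12 measures. LysCTT made up 28.1% and 30.1% of lysine counts in Nsun2 -/- and 27.8% (95% Wilson interval 24.0 to 31.9) in the wild-type sample at E13.5. At E18.5 it made up 37.8%, 39.5%, 35.9% and 36.4% in Nsun2 -/- and 35.7%, 38.2%, 37.4% and 39.8% in wild type. The lowest E18.5 sample was above the highest E13.5 sample, and the genotypes overlapped at E18.5. The shift was 9.15 percentage points (exact p = 0.0133, adjusted 0.04).

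Within the CGN arginine tRNAs, ArgACG held the largest share in every sample but wild-type replicate 2 of E18.5, where ArgCCG had 38.8% of the counts. It made up 57.3% and 51.6% in Nsun2 -/- and 65.4% in wild type at E13.5. At E18.5 its share was 48.2%, 49.1%, 45.9% and 43.4% in Nsun2 -/- and 41.4%, 36.7%, 47.9% and 49.8% in wild type. These ranges did not overlap, and the share was 14.6 points lower at E18.5, a difference of −14.6 (exact p = 0.0133, adjusted 0.04). ArgTCG took 17.1% and 16.6% in Nsun2 -/- and 13.1% in wild type at E13.5 and between 19.4% and 26.0% at E18.5, a gain of 6.81 points without overlap (exact p = 0.0133, adjusted 0.04). ArgCCG gained 7.81 points, from between 21.5% and 31.8% to between 29.4% and 38.8%, with overlap, and this difference missed the threshold (exact p = 0.04, adjusted 0.0686). With either Nsun2 -/- sample of E13.5 left out, the calls on LysCTT, ArgACG, ArgTCG and the CGN share of arginine given next were lost. Fewer arrangements then remain and the smallest possible p is higher, so the test could hardly have kept these calls. The shifts were then 8.66 to 9.65 points for LysCTT, −16.1 to −13.2 for ArgACG and 6.69 to 6.93 for ArgTCG. The single wild-type sample of E13.5 was kept in each. By group mean, the ArgACG share fell from 54.5% to 46.7% in Nsun2 -/-. In wild type it fell from 65.4% in the single sample to 43.9%. The LysCTT share rose from 29.1% to 37.4% in Nsun2 -/- and from 27.8% to 37.8% in wild type. For ArgTCG the shares were 16.8% and 21.7% in Nsun2 -/-, and 13.1% and 21.8% in wild type.

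**Figure D2:**
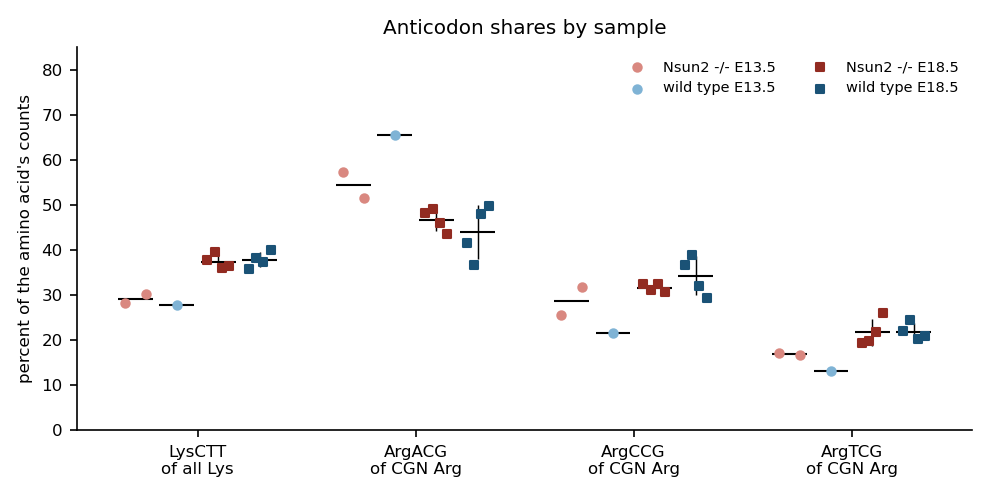
Share of each anticodon in the counts of its amino acid (y axis, percent), for LysCTT among lysine tRNAs and for the 3 anticodons among CGN arginine tRNAs (x axis). Points are samples, circles for E13.5 and squares for E18.5, with group means and 1 SD in the groups of 4. The LysCTT share lies at 27.8% to 30.1% at E13.5 and at 35.7% to 39.8% at E18.5.

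Set against the other arginine tRNAs, the CGN readers held 58.3% and 56.8% of all arginine counts in Nsun2 -/- and 62.8% in the wild-type sample at E13.5. At E18.5 they held 64.2%, 62.6%, 62.7% and 68.0% in Nsun2 -/- and 69.6%, 68.1%, 66.5% and 67.1% in wild type. The difference between stages was 5.94 points, with overlap (exact p = 0.0133, adjusted 0.04). The call was lost without the genotype stratum (6.81 points, adjusted p = 0.0545 by exact permutation). It was also lost, at 5.58 to 6.29 points, with either Nsun2 -/- sample of E13.5 left out, where few arrangements remain. Of the AGR readers, ArgTCT was lower at E18.5 (log2 fold change −0.56, SE 0.093, adjusted p = 1.24e-05) and ArgCCT higher (0.43, SE 0.13, adjusted p = 0.00755).

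At the level of single copies, 22 of the 44 passed the filter on low counts in the comparison of stages, and 10 were called, 6 higher and 4 lower at E18.5. Of all genes tested, 28.4% were called, 14.2% in each direction. The median log2 fold change was −0.12 over the 22 copies and −0.022 over all genes tested. The calls were spread over all isoacceptors, with 1 of 3 tested LysCTT copies, 3 of 7 LysTTT copies, 2 of 5 ArgACG copies, 2 of 3 ArgCCG copies and 2 of 4 ArgTCG copies. All 5 tested ArgACG copies had a negative and all 3 ArgCCG copies a positive log2 fold change, whereas LysTTT copies went both ways.

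**Figure D3:**
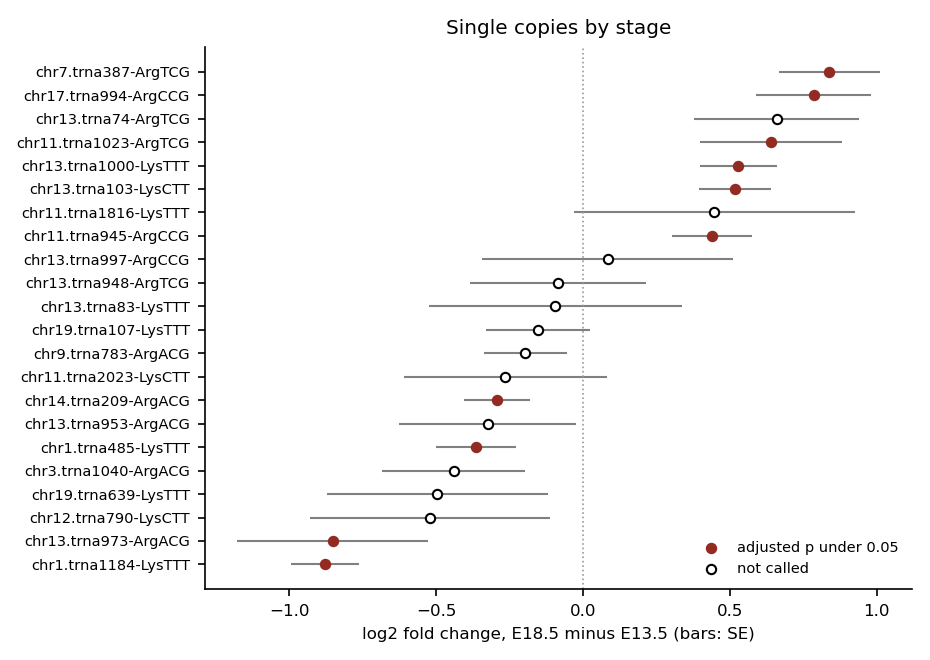
Log2 fold change between stages (x axis, E18.5 minus E13.5, averaged over genotypes) for the 22 copies tested (y axis), with bars of 1 SE. Filled points have an adjusted p under 0.05 (edgeR); they run from −0.88 for chr1.trna1184-LysTTT to 0.84 for chr7.trna387-ArgTCG.

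The copy with the largest fall, chr1.trna1184-LysTTT, had 153 and 69 counts in Nsun2 -/- and 135 in the wild-type sample at E13.5. At E18.5, in smaller libraries, it had 44, 45, 56 and 48 counts in Nsun2 -/- and 47, 45, 49 and 48 in wild type. As a percent of all tRNA counts it ranged from 1.26% to 1.98% at E13.5 and from 0.777% to 1.20% at E18.5, without overlap. The log2 fold change was −0.88 (SE 0.12, adjusted p = 8.40e-07), a level 0.544 times that of E13.5, and it passed under each of the 18 alternatives tried, with values between −1.003 and −0.49. The smallest was that of the Nsun2 -/- samples alone (adjusted p = 0.0217). Its neighbour chr1.trna485-LysTTT, with 150, 70 and 101 counts at E13.5 and between 42 and 73 at E18.5, was near the threshold (−0.37, SE 0.14, adjusted p = 0.0469) and passed under 9 of 18 alternatives, so its change is not firm. In the Nsun2 -/- samples alone it was −0.36 (adjusted p = 0.182).

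The third large LysTTT copy, chr13.trna1000-LysTTT, rose instead. It had 86 and 42 counts in Nsun2 -/- and 50 in wild type at E13.5, which is 0.734% to 0.875% of all counts, and 1.03% to 1.30% at E18.5. The log2 fold change was 0.53 (SE 0.13, adjusted p = 0.00246), and 0.43 in the Nsun2 -/- samples alone (adjusted p = 0.0627). Its share of LysTTT and that of chr1.trna1184-LysTTT moved in opposite directions. The share of chr13.trna1000-LysTTT was 17.2% and 17.7% in Nsun2 -/- and 14.2% in wild type at E13.5, and 28.7%, 31.0%, 25.0% and 25.4% in Nsun2 -/- and 29.0%, 25.7%, 29.4% and 26.8% in wild type at E18.5. That of chr1.trna1184-LysTTT went from 30.7% and 29.1% in Nsun2 -/- and 38.5% in wild type to 24.7%, 24.5%, 24.1% and 25.9% in Nsun2 -/- and 19.5%, 18.7%, 21.5% and 21.1% in wild type. Neither share overlapped between stages. The share of chr1.trna485-LysTTT was 29.5% ± 0.65 (SD, n = 3) at E13.5 and 27.3% ± 2.94 (SD, n = 8) at E18.5, with overlap (exact p = 0.333, adjusted 0.4).

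In LysCTT, the leading copy moved in the same direction as the isoacceptor. chr13.trna103-LysCTT made up 1.22% to 1.39% of all counts at E13.5 and 1.83% to 2.27% at E18.5, without overlap. Its log2 fold change was 0.52 (SE 0.12, adjusted p = 0.00147), and it passed under each of the 18 alternatives, at 0.35 to 0.58, where the Nsun2 -/- samples alone gave the upper value (adjusted p = 0.00827). The other tested LysCTT copies, chr11.trna2023-LysCTT and chr12.trna790-LysCTT, had at most 18 counts in a sample and log2 fold changes of −0.27 (adjusted p = 0.585) and −0.52 (adjusted p = 0.369). The share of chr13.trna103-LysCTT in LysCTT was 61.5% and 74.5% in Nsun2 -/- and 68.9% in wild type at E13.5 and 73.3% to 85.8% at E18.5, a difference of 8.75 points that missed the threshold (exact p = 0.0267, adjusted 0.0533).

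**Figure D4:**
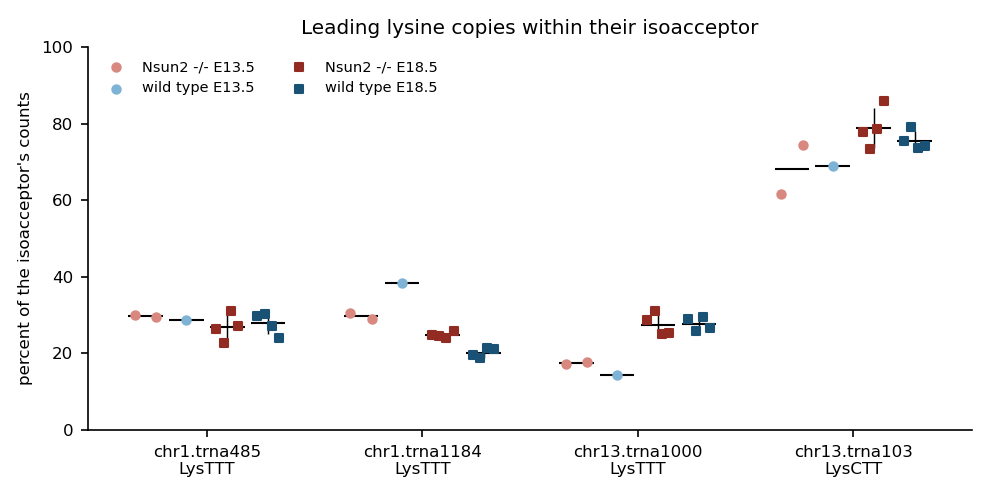
Share of 4 lysine tRNA copies in the counts of their isoacceptor (y axis, percent); points are samples, circles for E13.5 and squares for E18.5, with group means and 1 SD in the groups of 4. chr13.trna1000-LysTTT lies at 14.2% to 17.7% at E13.5 and 25.0% to 31.0% at E18.5, and chr1.trna1184-LysTTT at 29.1% to 38.5% and 18.7% to 25.9%.

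Among the CGN arginine copies, chr7.trna387-ArgTCG had the largest rise. It made up 0.641% to 0.661% of all counts at E13.5 and 0.934% to 1.54% at E18.5, without overlap, with a log2 fold change of 0.84 (SE 0.17, adjusted p = 3.09e-04) that passed under each of the 18 alternatives. In the Nsun2 -/- samples alone it was 0.74 (adjusted p = 0.0154). chr17.trna994-ArgCCG (chr17:23687230-23687302, −) was at 0.470% to 0.639% and 0.675% to 1.26%, with a log2 fold change of 0.79 (SE 0.20, adjusted p = 0.00246). Without the first Nsun2 -/- sample of E13.5 this was 0.56 (adjusted p = 0.0643), and in the Nsun2 -/- samples alone 0.56 (adjusted p = 0.109). chr11.trna945-ArgCCG overlapped between stages, at 1.38% to 1.88% and 1.70% to 2.64%, and its log2 fold change was 0.44 (SE 0.14, adjusted p = 0.0145). It was 0.24 (adjusted p = 0.253) without the first Nsun2 -/- sample of E13.5, 0.32 (adjusted p = 0.0831) without the second Nsun2 -/- sample of E18.5, 0.34 (adjusted p = 0.0612) without the second wild-type sample of E18.5 and 0.18 (adjusted p = 0.538) in the Nsun2 -/- samples alone.

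The remaining calls lay at the threshold. chr14.trna209-ArgACG made up 2.68% to 4.10% of all counts at E13.5 and 2.40% to 3.36% at E18.5 and had a log2 fold change of −0.29 (SE 0.11, adjusted p = 0.0498), which was −0.058 (adjusted p = 0.805) in the Nsun2 -/- samples alone. chr13.trna973-ArgACG, with 2 to 17 counts in a sample, had −0.85 (SE 0.33, adjusted p = 0.0498), and chr11.trna1023-ArgTCG, with 12 to 29, had 0.64 (SE 0.24, adjusted p = 0.0494). In the Nsun2 -/- samples alone these last copies gave −0.74 (adjusted p = 0.32) and 0.35 (adjusted p = 0.491). The 3 copies passed under 8 of 18, 5 of 17 and 6 of 18 alternatives. The other ArgACG copies were not called, among them chr9.trna783-ArgACG at −0.20 (adjusted p = 0.34) and chr3.trna1040-ArgACG at −0.44 (adjusted p = 0.204), nor was chr13.trna997-ArgCCG at 0.085 (adjusted p = 0.872) or chr13.trna74-ArgTCG at 0.66 (adjusted p = 0.0772).

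The reads listed for the called copies differed in their ends, as the sequences above show for the largest. Each of the 6 copies called higher at E18.5 had at least 1 listed read that ends in CCA, the end of a mature tRNA, and for chr7.trna387-ArgTCG, chr17.trna994-ArgCCG and chr11.trna945-ArgCCG these were 8 of 8, 8 of 8 and 5 of 5 reads. Such reads were common in the lists, called copies or not. Among the 28 copies with listed reads, only chr14.trna209-ArgACG, the chr1 LysTTT copies and the uncalled LysTTT copies lacked them. Of the 4 copies called lower, 3 had none, with 0 of 7 for chr1.trna1184-LysTTT, 0 of 5 for chr1.trna485-LysTTT and 0 of 5 for chr14.trna209-ArgACG, and the exception was chr13.trna973-ArgACG with 5 of 6. Of these 3, chr1.trna485-LysTTT and chr14.trna209-ArgACG were called at or near the threshold. Copies that were tested and not called went both ways. Among those that break the division, chr9.trna783-ArgACG (log2 fold change −0.20), chr13.trna953-ArgACG (−0.32), chr11.trna2023-LysCTT (−0.27) and chr12.trna790-LysCTT (−0.52) had 5 of 5, 2 of 2, 24 of 30 and 21 of 27 listed reads with a CCA end. An uncalled ArgTCG copy (−0.085) breaks it too, with 1 of 1. Those that follow it include chr13.trna74-ArgTCG (0.66) with 1 of 1 and chr13.trna997-ArgCCG (0.085) with 9 of 9. The uncalled LysTTT copies with listed reads (−0.15 and −0.50) follow it too, with 0 of 3 each. The division was noticed after the values were seen and was not tested. The lists were at hand only in part.

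The second question was how these tRNAs differ without NSUN2. At E18.5, with 4 samples of each genotype, none of the 5 isoacceptors was called, whereas 13.3% of all isoacceptors tested were. ArgCCG had the largest difference: it made up 2.92% ± 0.12 (SD, n = 4) of all counts in Nsun2 -/- and 3.38% ± 0.60 (SD, n = 4) in wild type. The log2 fold change, Nsun2 -/- minus wild type, was −0.21 (SE 0.11, adjusted p = 0.247), with a 95% interval from −0.43 to 0.011. Wild-type replicates 1 and 2 were above all Nsun2 -/- samples, while wild-type replicates 3 and 4 were within their range.

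The intervals of the other isoacceptors were narrower than that of ArgCCG, except that of ArgTCG, which was wider. They ran from −0.16 to 0.20 for LysCTT (log2 fold change 0.019, SE 0.093, adjusted p = 0.945), from −0.13 to 0.22 for LysTTT (0.047, SE 0.090, adjusted p = 0.801), from −0.17 to 0.18 for ArgACG (0.0076, SE 0.090, adjusted p = 0.955) and from −0.35 to 0.14 for ArgTCG (−0.10, SE 0.13, adjusted p = 0.723). LysCTT made up 2.55% ± 0.090 (SD, n = 4) of counts in Nsun2 -/- and 2.52% ± 0.043 (SD, n = 4) in wild type. None of the 12 shares passed the test between genotypes, with or without adjustment (exact permutation test, 70 arrangements, smallest possible p = 0.0286). The LysCTT share of lysine differed by −0.39 points (exact p = 0.771, adjusted 0.926), and the CGN share of all arginine, with the lowest p, by −3.47 points (exact p = 0.0857, adjusted 0.784).

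Of 15 copies tested at E18.5, 1 was called, against 9.43% of all genes tested. This copy, chr13.trna953-ArgACG (chr13:23538661-23538733, −), had 6, 3, 8 and 5 counts in Nsun2 -/- and 15, 13, 11 and 18 in wild type. The genotypes did not overlap, and the log2 fold change was −1.02 (SE 0.31, adjusted p = 0.0477). The call was lost when any one of the 8 samples was left out, with log2 fold changes between −1.19 and −0.82 and adjusted p between 0.0614 and 0.234. At E13.5 the same copy had 23 and 9 counts in Nsun2 -/- and 15 in wild type. The longest read listed for it alone, of 38 nt, ends in CCA and does not reach the anticodon.

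The next copy by p was chr1.trna1184-LysTTT, the LysTTT copy that fell between stages. It had a log2 fold change of 0.36 that did not pass (SE 0.13, adjusted p = 0.104 by edgeR). Its share of LysTTT, at 24.1% to 25.9% in Nsun2 -/- and 18.7% to 21.5% in wild type, did not overlap, but was not tested. At E13.5 this share went the other way, at 30.7% and 29.1% in Nsun2 -/- and 38.5% in the single wild-type sample. The leading copies of the other isoacceptors were not called: chr13.trna103-LysCTT by 0.095 (adjusted p = 0.772), chr14.trna209-ArgACG by 0.091 (adjusted p = 0.798), chr11.trna945-ArgCCG by −0.18 (adjusted p = 0.505) and chr7.trna387-ArgTCG by −0.16 (adjusted p = 0.772). The signs of the first and second of these turned to −0.026 and −0.035 under upper-quartile scaling, which moved the median of all genes from 0.016 to −0.10. Over the 15 copies the median was −0.012, with 1 called lower and none higher.

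**Figure D5:**
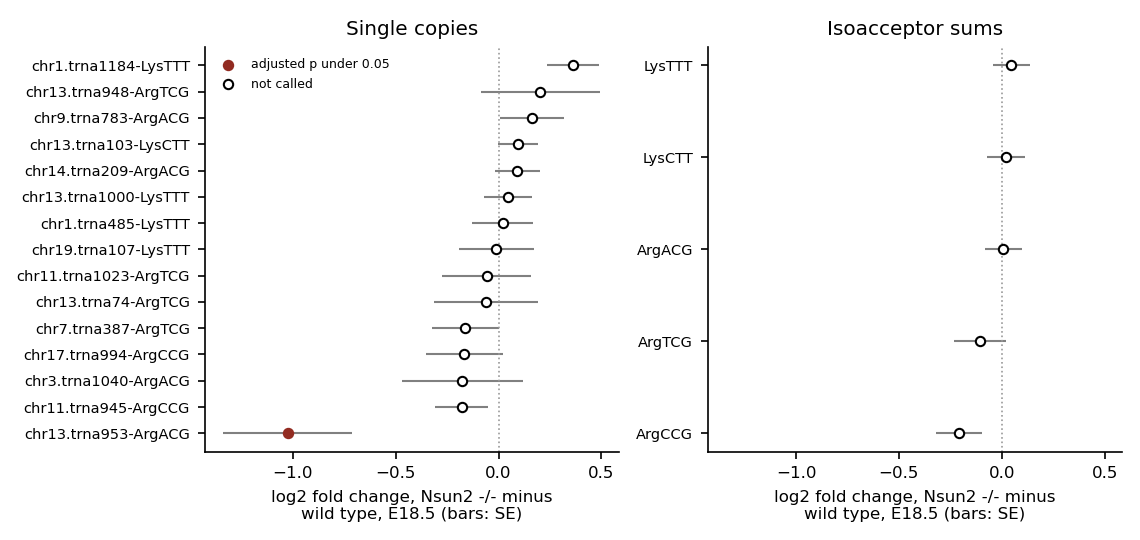
Log2 fold change at E18.5 (x axis, Nsun2 -/- minus wild type) of the 15 copies tested (left) and the 5 isoacceptor sums (right), with bars of 1 SE. The filled point is chr13.trna953-ArgACG at −1.02, the one copy with an adjusted p under 0.05; the isoacceptor sums lie between −0.21 and 0.047.

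At E13.5 the comparison of genotypes rests on 1 wild-type sample, which is taken to vary like the other groups. None of the 22 copies tested and none of the 5 isoacceptors was called by edgeR, where the called share of all genes and of all isoacceptors was 0%, with 11 genes and 7 isoacceptors at an unadjusted p below 0.05 and no call by DESeq2, which had 6 and 4. The log2 fold change of ArgACG was −0.31 (SE 0.15, adjusted p = 0.286), and the copies with the lowest p were chr1.trna1184-LysTTT at −0.42 (adjusted p = 0.535) and chr14.trna209-ArgACG at −0.39 (adjusted p = 0.668). The difference between stages in the genotype effect was called for none of these copies or isoacceptors, against 0.645% of genes and 4.26% of isoacceptors. The lowest p among the copies was that of chr1.trna1184-LysTTT, whose genotype effect was 0.77 higher at E18.5 (SE 0.23, adjusted p = 0.132), and among the isoacceptors that of ArgCCG, at −0.51 (SE 0.23, adjusted p = 0.205).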

How the data were processed

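Libraries of tRNAs and their fragments, made from embryonic frontal lobes, were compared by stage and genotype. The authors deposited raw counts per tRNA gene without normalization, 1 file per sample. Per the labels and methods, adapters were trimmed, reads were aligned with Bowtie with up to 2 mismatches and a single best place, unmapped reads were realigned after removal of CCA, and featureCounts 1.4.4 counted reads over each gene extended by 20 nt, with no strand option. Fragments and full-length tRNAs are added up in these counts, and whether identical reads were collapsed is not given in the sources used here. The file header names an mm9 annotation and the methods name mm10, so coordinates are those of the files and no genome was read. 

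Counts were tested per gene and as isoacceptor sums with edgeR 4.0.16 (R 4.3.3; quasi-likelihood test, TMM, filterByExpr with a minimum count of 10, Benjamini-Hochberg adjustment over all features). The genotype at E18.5 was fitted on its 8 samples and all other comparisons on 11 samples in 4 groups, since E13.5 has 1 wild-type sample. Percent shares were compared with exact permutation tests that ran through all arrangements. Intervals of log2 fold changes are 1.96 SE on either side, and Wilson intervals (scipy 1.17.1) and the floor of 3 counts cover counting error only. The fit of genotype at E18.5 was tried on data simulated for its 8 samples, whereas the fits of 11 samples were not simulated. Named copies were the 3 with most counts in each isoacceptor, any copy called in a comparison, and any with an unadjusted p below 0.05 at E18.5, 17 in all. The members and lists were chosen with earlier results of these data known. Alternatives were DESeq2 1.42.0, library-size and upper-quartile scaling, other filters, a replicate block, other sample sets and each sample left out. Replicates 1 and 2 of Nsun2 -/- and 3 and 4 of wild type were the closest pairs of their groups at E18.5 (chi-square p = 0.933 and 0.407). Their differences were within sampling noise, as were those of other pairs, such as Nsun2 -/- replicates 2 and 3 (chi-square p = 0.858). In the closest pairs 242 and 255 genes had unequal counts, so all samples were kept apart. Adding up these closest pairs was an alternative chosen after seeing the data.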

Additional observations from a re-analysis of the deposited data

Results flagged for a closer look

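ArgTCG made up 2.52% of all tRNA counts in Nsun2 -/- replicate 4 at E18.5, while the other 3 samples of that group lay between 1.80% and 1.89%. The gap is 0.879 of the group's whole range, above Dixon's 95% critical value for 4 samples. It was the only sample that stood apart in this way among 68 groups of 4 values examined (the isoacceptors, shares and named copies in each genotype at E18.5), where chance alone flags about 1 in 20. The wild-type samples of the stage ranged from 1.83% to 2.54%, and ArgTCG was called higher at E18.5 than at E13.5 also with any one of the E18.5 samples left out. Within that sample the copy chr7.trna387-ArgTCG had 61 of the 101 ArgTCG counts.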

How the results depend on the processing

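Of 583 alternative values of the comparisons as a whole, 509 kept their direction and their side of the threshold, or stayed within 1.5 times a count. For each value below that changed, the cause was not tested. In the Nsun2 -/- samples alone, which leaves both wild-type groups out of the difference, 7 isoacceptors, 25 genes, 3 of the copies described here and 1 of the 5 isoacceptors were called between stages (19, 44, 10 and 5 otherwise). The log2 fold changes were then −0.15 for ArgACG, 0.25 for ArgCCG, 0.33 for LysCTT and −0.22 for LysTTT, none past the threshold, and the uncalled chr11.trna2023-LysCTT and chr13.trna997-ArgCCG turned to 0.0057 and −0.27. Among the copies described here, 6 were called between stages with DESeq2, with no filter and with upper-quartile scaling, and 4 to 9 with 1 sample left out. Without the genotype stratum, the CGN share of arginine differed by 6.81 points (adjusted p = 0.0545). With copies under 10 counts left out, the share of chr13.trna103-LysCTT differed by 9.16 points and passed (adjusted p = 0.032).

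At E18.5 the single copy called between genotypes was lost, leaving 0, under upper-quartile scaling, with no filter and in the fit of all 11 samples. The same held with the closest samples added up and with any one sample left out (0 to 0). With at least 10 counts in every sample this copy was not tested, and with DESeq2 it had no adjusted p, so that 0 were called there too. Upper-quartile scaling called 4 genes (1 higher and 3 lower, 6 and 4 otherwise) and 1 isoacceptor, and it turned uncalled log2 fold changes to −0.014 for ArgACG, −0.10 for chr1.trna485-LysTTT, −0.077 for chr13.trna1000-LysTTT, −0.026 for chr13.trna103-LysCTT and −0.035 for chr14.trna209-ArgACG. That of chr1.trna485-LysTTT was −0.021 with at least 10 counts in every sample and −0.0045 by library size. The ArgTCG share turned to 0.15 points with the closest samples added up, and the share of chr11.trna945-ArgCCG to 0.017 as log2 odds. With 1 sample left out, 4 to 10 genes and 3 to 9 isoacceptors were called, and uncalled values crossed 0 for ArgACG (−0.048 to 0.088), chr1.trna485-LysTTT (−0.10 to 0.12), chr11.trna1023-ArgTCG (−0.12 to 0.021), chr13.trna74-ArgTCG (−0.16 to 0.057), chr17.trna994-ArgCCG (−0.34 to 0.018) and chr3.trna1040-ArgACG (−0.48 to 0.0025), and for the shares of ArgTCG (−1.52 to 0.79 points), LysCTT (−1.09 to 0.29), chr1.trna485-LysTTT (−2.45 to 0.28) and chr11.trna945-ArgCCG (−2.47 to 3.36).

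At E13.5, uncalled log2 fold changes of LysCTT turned to −0.058 with at least 10 counts in every sample, −0.036 by library size and −0.072 by upper quartile, and that of LysTTT to 0.0065 with DESeq2. The difference between stages in the genotype effect was called for 0 genes and 0 isoacceptors with DESeq2 and with upper-quartile scaling, and for 2 genes and 0 isoacceptors with no filter, and LysCTT turned to −0.024 with DESeq2. With either Nsun2 -/- sample of E13.5 left out, 0 to 3 isoacceptors were called between genotypes at E13.5 and 0 to 4 isoacceptors and 0 to 1 genes for the difference, LysTTT at E13.5 was −0.15 to 0.030, and LysCTT in the difference −0.0089 to 0.036. The stage shifts of shares were then −16.1 to −13.2 points for ArgACG, 6.69 to 6.93 for ArgTCG, 5.58 to 6.29 for the CGN share, 8.66 to 9.65 for LysCTT and −0.34 to 0.10 for lysine in all counts. Over samples left out, LysTTT between stages was −0.32 to −0.23 and chr13.trna997-ArgCCG −0.23 to 0.77.

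Whether the replicate numbers pair the samples could not be decided from 4 pairs. Deviations of same-numbered E18.5 samples correlated at 0.25, 0.11, 0.20 and −0.10 over 105 genes. Those of differently numbered samples correlated at −0.30 to 0.39. With the replicate block, 3 genes and 6 isoacceptors were called between genotypes at E18.5, with 0 of the copies described here, and 6 of these copies were called between stages, with LysCTT at 0.29 (adjusted p = 0.0717).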

Other observations

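Among copies not described above, chr19.trna107-LysTTT had 340 counts over the 11 samples and chr13.trna948-ArgTCG had 147, and neither was called in any comparison. Of the 44 copies, those with counts but fewer than 10 over all samples included chr9.trna1514-LysCTT and chr7.trna1276-LysTTT, with 8 counts each, and chr17.trna1000-LysCTT, with 2. The copy chr13.trna951-ArgACG lies 3385 nt from chr13.trna949-ArgTCG, and they had 16 counts and 1 count over the 11 samples. The neighbours chr17.trna994-ArgCCG and chr17.trna84-LysCTT lie 2830 nt apart.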
